A study of Cynara cardunculus with 36 samples.

Results

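In the hearts of stored globe artichoke heads, 130 gene models stood higher after 7 days of cold storage than both at its start and after 14 days, in each of 4 cultivars. They were chosen from 21883 gene models tested, out of 28632 listed in the deposited count files. The choice used the measured values themselves. For each cultivar and day, the mean log2 CPM (log2 of reads per 1000000 reads in gene models, after TMM scaling, with 2 reads added) was taken. A gene model was kept where the day 7 mean lay at least 0.5 above the day 0 mean and at least 0.5 above the day 14 mean in every cultivar. A limit of 150 members was not reached. The size of these differences between day 7 and the other days is therefore a description of the choice and was not tested.

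The edible head of the artichoke is an immature inflorescence, and its heart is the fleshy receptacle with the bases of the bracts. A cut head goes on respiring and draws on its reserves, and cold slows this down. Artichoke tissue is rich in phenolic compounds such as chlorogenic acid, and oxidation of these compounds by polyphenol oxidase gives the brown colour seen in cut or ageing tissue. A transcript that is high in the middle of storage and low at both ends is a transient one, in contrast to the steady rise or fall of a transcript that tracks the age of the tissue.

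The study followed the ageing and loss of quality of artichoke heads in storage, by RNA sequencing of heart tissue on days 0, 7 and 14 of cold storage, with 3 biological replicates in each of the 12 groups. The cultivars were Green Globe Improved (GGI), Opal (OP), Green Queen (GQ) and Imperial Star (IS). All plants were field grown under GA treatment, all heads were kept cold for a time before day 0, and no heads stored warm were included, so that these conditions are common to every group. The 36 libraries held 5.76 to 54.5 M reads in gene models (M for 1000000), with a median of 39.6 M. Library numbers run through day 0, then day 14, then day 7, so sequence of libraries and storage day cannot be told apart.

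A few libraries differed from the rest. In 4 day 7 libraries, OP replicate 1, GGI replicate 2 and GQ replicates 2 and 3, reads that fell in no gene model made up 30.1% to 71.0% of the listed reads, against 9.39% to 16.0% in the other 32. The rule left these 4 out, so day 7 rests on 2 libraries of OP, 3 of IS, 2 of GGI and 1 of GQ, and each other day on 3 libraries per cultivar. Over 99 gene models that separated GGI from GQ at day 0, the library labelled GGI day 14 replicate 1 showed the GQ state in 91, and the library labelled GQ day 14 replicate 1 showed the GGI state in 71. The other GGI libraries of days 7 and 14 showed the GGI state in 67 to 78. The other GQ libraries of those days showed the GQ state in 90 to 93 where used, and in 79 and 76 where left out. Both libraries with crossed markers were kept under their labels. Without them 126 gene models met the rule, and 119 of these were among the 130.

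The single cultivars met the rule in far more gene models than the 4 together. It was met by 2757 gene models in OP, 2498 in GGI, 2552 in GQ and 1463 in IS. Another 514 gene models met it in exactly 3 cultivars, 1530 in exactly 2 and 4148 in exactly 1. The 3 members nearest to the threshold had a smallest difference of 0.50, 0.504 and 0.508, and the 3 gene models nearest outside it had 0.498, 0.497 and 0.496. Leaving out IS day 0 replicate 1 brought the number that met the rule to 76, with 75 of the 130 among them, and leaving out the only GQ day 7 library, so that GQ was no longer asked, brought it to 273.

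On the log2 CPM scale, the median difference of day 7 from day 0 over the 130 members was 1.80 in GGI, 1.46 in GQ, 1.41 in OP and 0.96 in IS. The median difference of day 7 from day 14 was 1.83 in GGI, 1.55 in GQ, 1.44 in IS and 1.36 in OP. IS was the cultivar with the smallest difference from day 0 in 66 members, and GGI the cultivar with the largest in 56. Against day 14, OP had the smallest difference in 50 members and GGI the largest in 55. In bulk heart tissue, fewer cells of a type and less RNA per cell cannot be told apart.

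**Figure D1:**
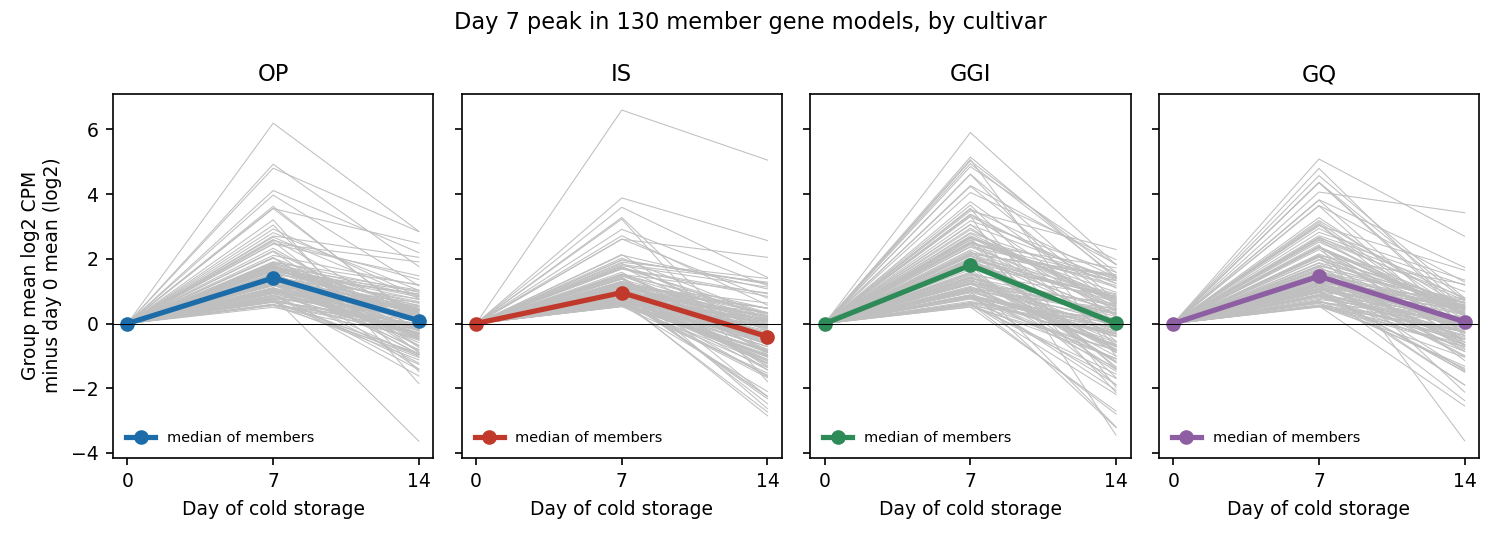
Mean log2 CPM of each member relative to its day 0 mean, at days 0, 7 and 14 of cold storage, in 1 panel per cultivar; thin lines are single members and the heavy line is the median over the 130 members. Every line is higher at day 7 than at either end because the rule asks for it, and the medians at day 7 lie between 0.96 in IS and 1.80 in GGI.

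The peak size of a member, the mean of its 8 differences (day 7 from day 0 and from day 14 in 4 cultivars), had a median of 1.49 and a range of 0.71 to 3.71 on the log2 scale. It was at least 1 in 121 members, at least 2 in 29 and at least 3 in 12. All 8 differences were at least 1 in 19 members, and in 0 members were all 8 at least 2. The difference from day 14 was larger than the difference from day 0 in 67 members of the 130 and smaller in the rest, so the members divided almost evenly by which side of the peak was steeper.

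Many members drew few reads. Their mean level per gene model, not per length, over the libraries used had a median of 1.25 log2 CPM, against 3.54 for all gene models tested, and 42 members had a mean below 0. Another 23 members had a mean of at least 5, and the level reached 8.73. By day, the median level of the members was 0.79 log2 CPM at day 0, 2.63 at day 7 and 0.70 at day 14. For all gene models tested the medians were 3.57 at day 0, 3.50 at day 7 and 3.55 at day 14. The files give no transcript lengths, so levels of different members are not compared.

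The members also varied more between replicates. The median SD of log2 CPM within groups was 0.77 over the members, against 0.42 over all gene models tested, and the part of low read counts in this was not tested. The 130 members were often high together in 1 library of a group. In OP at day 0, replicate 1 was the highest of the 3 replicates in 95 members (73.1%, against 30.9% of all gene models tested). In IS at day 0, replicate 2 was the highest in 89 members (68.5%, against 38.4%). At day 14 the same held for OP replicate 1 with 91 members (70%, against 32.6%) and for IS replicate 3 with 92 members (70.8%, against 40.6%). In GGI the leading library was the highest in 69 members at day 0 (53.1%, against 36.0%) and in 67 at day 14 (51.5%, against 38.2%). In GQ it was the highest in 54 members at day 0 (41.5%, against 37.0%) and in 56 at day 14 (43.1%, against 36.1%).

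These 4 leading libraries of OP and IS were also those with the largest share of reads outside gene models in their group, at 13.7%, 10.8%, 12.6% and 11.1% in the order given. In each of these 4 libraries, the level of each member was set against its mean in the groupmate libraries, on the log2 scale. The median of these gaps over the members was 1.10 and 0.72 at day 0 and 1.04 and 0.43 at day 14. In GGI and GQ at those days, the library with the largest share lay 0.05 to 0.44 below its groupmates by the same median gap. At day 7 the gap of the library with the largest share was -0.01 in OP, 0.10 in IS and -0.05 in GGI. Of the 11 groups with 2 or more used libraries, the leading library had the largest share in these 4 only. Among used libraries, the share exceeded 13% in OP day 0 replicate 1. At day 7 it did so in OP replicate 2 (16.0%), GQ replicate 1 (14.5%), GGI replicate 1 (13.5%) and IS replicate 2 (13.3%). The part that reads outside gene models had in the members' levels was not tested by the model. Without the libraries in which such reads exceeded 13%, a step chosen after seeing the data that removes the only GQ library of day 7, 226 gene models met the rule in OP, IS and GGI, and 82 of these were among the 130.

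Library by library, the members' median relative to the day 0 mean of the cultivar was as follows. In OP it was 0.75, -0.57 and -0.21 in the day 0 libraries, 1.48 and 1.38 in the day 7 libraries used, and 0.96, -0.06 and -0.40 in the day 14 libraries. In IS it was -0.45, 0.46 and 0.16 at day 0, 1.06, 1.14 and 0.84 at day 7, and -0.56, -0.28 and -0.10 at day 14. The used day 7 libraries of these 2 cultivars lay above all their own day 0 and day 14 libraries. The nearest of the latter were OP day 14 replicate 1 and IS day 0 replicate 2. The left-out OP day 7 library, at 0.68, lay below OP day 0 replicate 1 and OP day 14 replicate 1. In GGI it was 0.01, 0.21 and -0.18 at day 0, 2.01 and 1.68 at day 7, and 0.08, -0.16 and 0.43 at day 14. In GQ it was -0.04, 0.05 and -0.09 at day 0, 1.49 in the only day 7 library used, and -0.03, 0.16 and 0.13 at day 14. Over the libraries used, the separation of day 7 from the other days was wider in GGI and GQ than in OP and IS. Since these are the values that chose the members, it carries no test, and in GQ it rests on 1 day 7 library. The left-out day 7 libraries lay at 1.32 and 0.68 in GQ and at 1.85 in GGI.

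**Figure D2:**
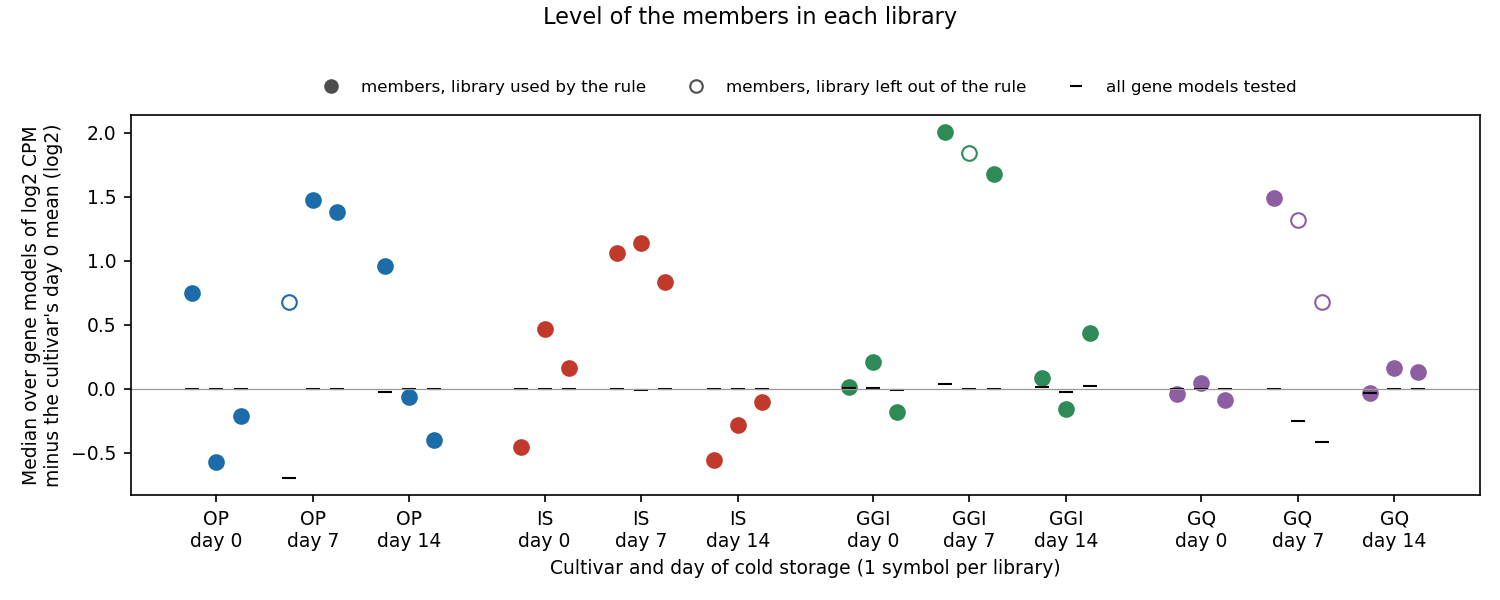
Median over the 130 members of log2 CPM relative to the day 0 mean of the cultivar, for each of the 36 libraries by cultivar and day; filled points are libraries used by the rule, open points the 4 day 7 libraries it left out, and short bars the median over all gene models tested. All used day 7 libraries lie at 0.84 or above, and the day 0 and day 14 libraries lie between -0.57 and 0.96.

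Means can part where single libraries overlap. All 8 used day 7 libraries lay above all 12 day 0 libraries in 16 members (12.3%, where 1.19% of all gene models tested did so), and above all 12 day 14 libraries in 19 members (14.6%, against 3.56%). They lay above both in 7 members (5.38%, against 0.0731%, or 16 gene models in all). Within cultivars, the used day 7 libraries lay above all day 0 and day 14 libraries of the cultivar in 72 members in OP (55.4%, against 11.3%) and in 41 in IS (31.5%, against 3.81%). The same was true of 97 members in GGI (74.6%, against 11.1%) and of 111 in GQ (85.4%, against 18%), where day 7 is a single library. It was true within each of the 4 cultivars in 24 members (18.5%, against 0.375%). The rule used these libraries and contrasts, so nothing is read from the gap between the members and all gene models.

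The 7 members whose used day 7 libraries overlapped with no day 0 or day 14 library were mostly not those with the largest peaks. They ranked 24, 61, 90, 94, 102, 119 and 130 by peak size, where rank 1 is the largest peak. The day 7 ranges given for them cover the 8 used libraries. Of the 4 left-out day 7 libraries, 3 were above the day 0 mean of their cultivar for ranks 24, 90, 102 and 130, 2 for rank 61, and only 1 for ranks 94 and 119. Rank 90 had 59.6 to 198 CPM at day 0 (median 145), 233 to 625 CPM at day 7 (median 314) and 94.3 to 230 CPM at day 14 (median 154). Rank 119 had 74.7 to 109 CPM at day 0 (median 95.0), 147 to 206 CPM at day 7 (median 163) and 52.8 to 90.3 CPM at day 14 (median 69.5). Rank 130, with the smallest peak of all, had 37.6 to 61.8 CPM at day 0 (median 50.8), 70.6 to 104 CPM at day 7 (median 81.0) and 39.7 to 57.2 CPM at day 14 (median 48.3). In all of them the ranges at day 0 and day 14 overlap with each other and stand clear of the used day 7 libraries.

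Rank 102 had 20.9 to 34.3 CPM at day 0 (median 28.9), 53.3 to 77.1 CPM at day 7 (median 64.2) and 19.0 to 48.6 CPM at day 14 (median 31.2). Rank 94 had 18.6 to 31.1 CPM at day 0 (median 23.5), 33.7 to 72.9 CPM at day 7 (median 52.3) and 10.8 to 28.5 CPM at day 14 (median 21.2). Their ranges over the used day 7 libraries are also clear of the other days, though for rank 94 only 1 of the 4 left-out libraries was above the day 0 mean. Rank 61 had 5.15 to 10.8 CPM at day 0 (median 9.08), 14.5 to 32.1 CPM at day 7 (median 17.3) and 2.02 to 11.4 CPM at day 14 (median 5.67). Rank 24 had 0.186 to 1.50 CPM at day 0 (median 0.297), 1.75 to 3.37 CPM at day 7 (median 2.24) and 0.202 to 0.939 CPM at day 14 (median 0.373). These members are given by rank because the files pair no identifier with a gene name and 0 of the 28632 identifiers matched the RefSeq gene table.

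The 4 day 7 libraries left out by the rule gave values of the same day that had no part in the choice of members, though the day 0 and day 14 means they are set against did. In GGI replicate 2, the members' median was 1.85 above the day 0 mean of GGI on the log2 scale, against 0.00 over all gene models tested, and 114 of the 130 members (87.7%, against 49.9%) were above it. In GQ replicate 2 it was 1.32 above the day 0 mean of GQ, against -0.25 over all gene models tested, with 96 members (73.8%, against 42.4%) above. In GQ replicate 3 it was 0.68, against -0.42, with 80 members (61.5%, against 40.7%) above. In OP replicate 1, the library with 71.0% of reads outside gene models, it was 0.68, against -0.70, with 74 members (56.9%, against 33.7%) above. This OP median lay below those of OP day 0 replicate 1 (0.75) and OP day 14 replicate 1 (0.96). The members' median was above that of all gene models tested in each of the 4 libraries, and highest in GGI replicate 2.

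Relative to the day 14 mean, the members' median was 1.72 in GGI replicate 2 (all gene models tested -0.03), 1.32 in GQ replicate 2 (-0.31), 0.71 in GQ replicate 3 (-0.50) and 0.35 in OP replicate 1 (-0.85). The members parted widely in these libraries. In OP replicate 1 the central range of the members (lower to upper quartile) ran from -2.82 to 2.58 relative to day 0, and in GQ replicate 3 from -1.26 to 2.70. It was narrower in GGI replicate 2, from 0.87 to 2.87, and in GQ replicate 2, from -0.10 to 2.44. In used day 7 libraries, 121 to 130 of the 130 members were above the day 0 mean of their cultivar. Of all gene models tested, 47.4% to 51.4% were above it there. The rule chose the members on these used libraries, so their count is no measure for the left-out ones.

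**Figure D3:**
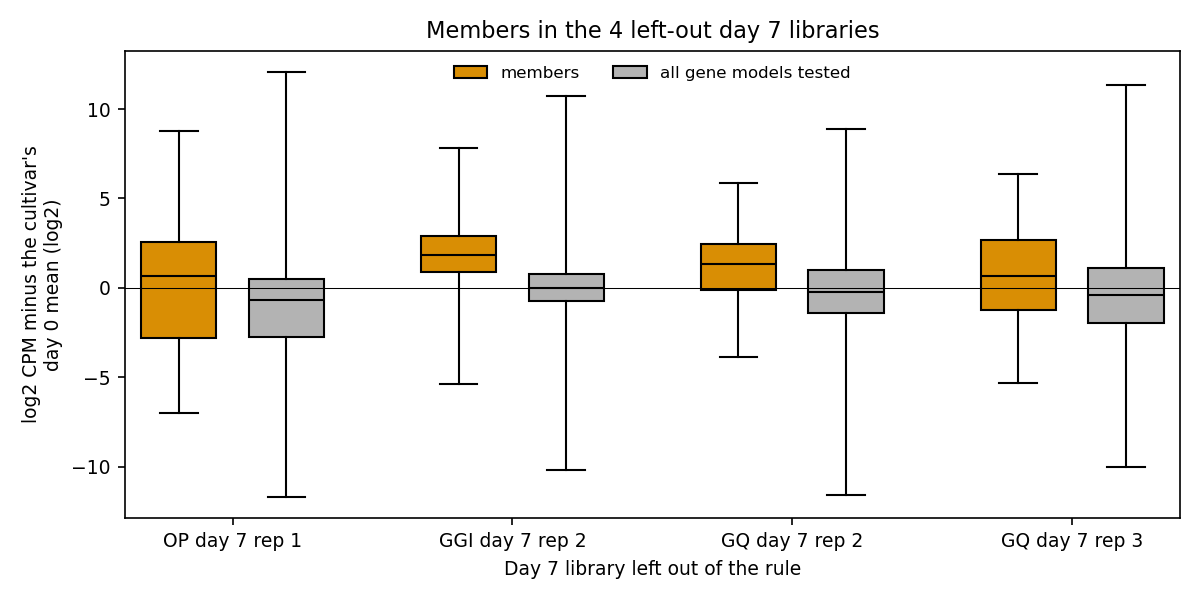
Distribution of log2 CPM relative to the day 0 mean of the cultivar in each of the 4 left-out day 7 libraries, for the 130 members and for all 21883 gene models tested; boxes span the quartiles with the median as a line, and whiskers reach the lowest and highest value. The members' medians, 0.68 in OP replicate 1, 1.85 in GGI replicate 2, 1.32 in GQ replicate 2 and 0.68 in GQ replicate 3, lie above those of all gene models, and the members' values in OP replicate 1 and GQ replicate 3 spread to both sides of 0.

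All 4 left-out libraries were above the day 0 mean of their cultivar in 49 members (37.7%, against 12.2% of all gene models tested), and below it in 3 members (2.31%, against 22.6%). They were above both the day 0 and the day 14 mean in 44 members (33.8%, against 6.43%). Between the 49 members and the other 81, the median rise to day 7 in the libraries used was 1.29 against 0.84 in IS, 1.47 against 1.34 in OP, 1.45 against 1.48 in GQ and 1.44 against 1.98 in GGI. The median in OP replicate 1 was 2.95 in the 49 members, against -1.70 in the other 81, and in GQ replicate 3 it was 2.96, against -0.88. In GGI replicate 2 the medians were 1.87 and 1.81 for the same 2 sets, so this library did not divide them. As the division into 49 and 81 was made on these 4 libraries, the gaps in them are a description. The median level over the libraries used was 1.76 log2 CPM in the 49 members and 0.67 in the other 81. OP replicate 1 held only 5.76 M reads in gene models, so that 3 reads correspond to 0.828 CPM there. The part of level and depth in the division was not tested.

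Using all 36 libraries in the rule left 116 gene models, of which 55 were among the 130. The membership of the other 75 therefore rested on leaving the 4 libraries out.

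Day 14 against day 0 compares the levels on both sides of the peak. The rule sets no condition on this difference, but a gene model with a wide gap between days 0 and 14 can meet it only with a still higher day 7 level. Of the 130 members, 30 (23.1%) differed between day 14 and day 0 in the mean of the 4 cultivars at an adjusted p under 0.05 by edgeR's quasi-likelihood test, where 71.7% of all gene models tested did. Higher at day 14 were 14 members (10.8%, against 34.5% of all gene models), and lower were 16 (12.3%, against 37.2%). The median log2 fold change of the members was 0.02, against -0.05 for all gene models, and the median of its absolute size was 0.33, against 0.77. A change that misses the threshold does not show that the level was back at its start.

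The 14 members called higher had log2 fold changes of 0.27 to 2.16, and 8 of them had the same sign in all 4 cultivars. Of the 16 called lower, 10 had the same sign in all 4 cultivars. The change of 15 of them lay between -0.36 and -1.50. The other one, the member of rank 46, had 0 reads in all 12 day 14 libraries and at most 6 in any day 0 library, and no fold is given for it. With all 36 libraries in the model, 19 members were called (59.4% of all gene models), and 9 of them were lower. The balance of directions was not stable. Without the 2 libraries with crossed cultivar markers, 28 were called (70.2% of all gene models), 17 higher and 11 lower. Without OP day 0 replicate 1, 34 were called (70.5%), 21 higher and 13 lower.

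**Figure D4:**
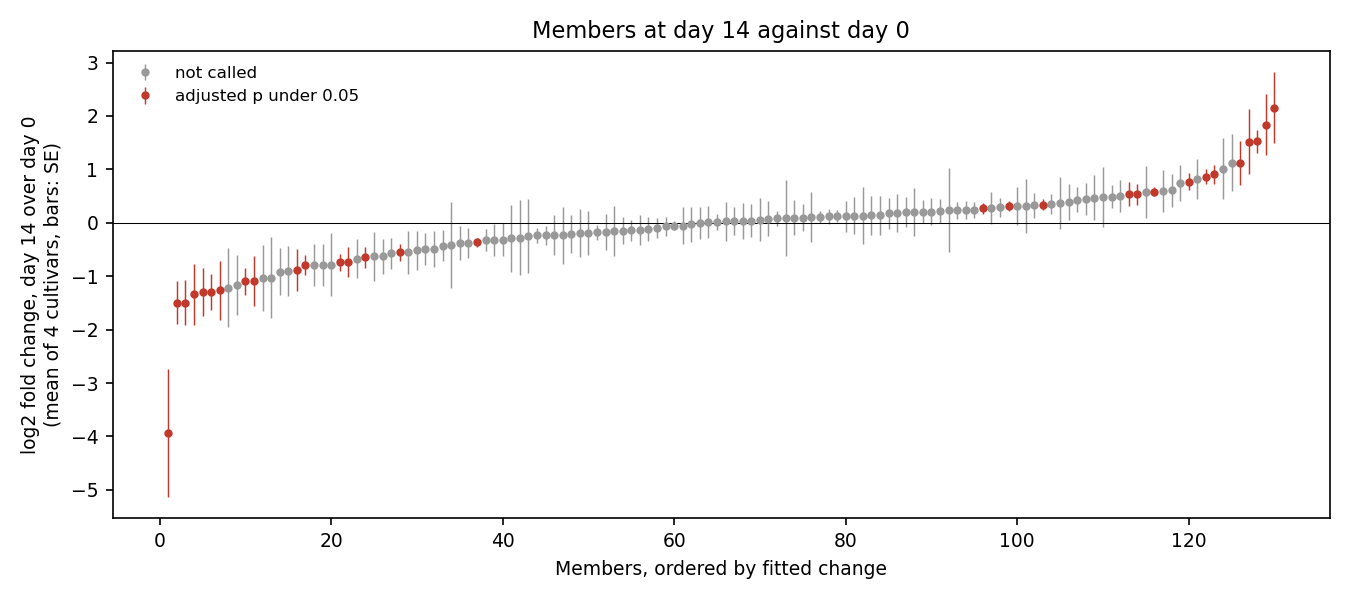
Fitted log2 fold change of day 14 over day 0 (mean of 4 cultivars, bars are SE) of each of the 130 members, ordered by that change along the horizontal axis; members called by edgeR at an adjusted p under 0.05 are red and the others grey. Of the 130 members, 14 are called higher and 16 lower, the median is 0.02, and the lowest point is the member with 0 reads at day 14, whose fitted value depends on how 0 is treated.

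Of the 7 members without overlap, those of rank 61 (log2 fold change -0.65, adjusted p = 0.0061) and rank 119 (-0.36, adjusted p = 0.000594) were lower at day 14 than at day 0 by edgeR's test. The member of rank 90 (0.24, adjusted p = 0.148) and that of rank 102 (0.13, adjusted p = 0.356) did not pass edgeR's test. The same was true of rank 24 (-0.31, adjusted p = 0.375), rank 94 (-0.24, adjusted p = 0.133) and rank 130 (-0.05, adjusted p = 0.586), all by edgeR.

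Within single cultivars, a smaller share of the members was called than of all gene models in the same test. The rule used these day 0 and day 14 means, so a wide gap between them again asked for a still higher day 7. The part of this, and of the members' lower level and larger SD, in the counts was not tested. In OP 14 members differed between day 14 and day 0 (10.8%, against 44.7% of all gene models), of which 10 were higher (7.69%, against 21.6%) and 4 lower (3.08%, against 23.2%). In IS 27 did (20.8%, against 51.7%), of which 9 were higher (6.92%, against 25.2%) and 18 lower (13.8%, against 26.5%). The members' median log2 fold change in IS was -0.50, against -0.05 for all gene models. In GGI 21 did (16.2%, against 55.8%), with 14 higher (10.8%, against 28.3%) and 7 lower (5.38%, against 27.5%). In GQ 13 did (10%, against 48.3%), with 6 higher (4.62%, against 24.5%) and 7 lower (5.38%, against 23.8%). The median change was 0.03 in OP, 0.09 in GGI and 0.11 in GQ, so IS was the cultivar whose members lay lowest at day 14 relative to day 0, a difference between cultivars that was tested only gene by gene.

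Single libraries moved these counts, and the share of all gene models called in the same setting is given with each. The OP count was 9 without day 0 replicate 2 (all gene models 36.5%), 7 without day 0 replicate 3 (41.3%) and 7 without day 14 replicate 2 (35.3%). The IS count was 47 without day 0 replicate 1 (all gene models 50.4%), 7 without day 0 replicate 2 (42.5%), 16 without day 0 replicate 3 (44.5%), 14 without day 14 replicate 1 (42.7%) and 11 without day 14 replicate 2 (43%). For IS the counts lay on both sides of 27. The GGI count was 8 without day 0 replicate 3 (all gene models 49.4%), 6 without day 14 replicate 1 (48.9%) and 36 without day 14 replicate 3 (57.3%). Without both libraries with crossed markers it was 5 (49.8%), with 3 of the 21 among them. The GQ count was 8 without day 0 replicate 1 (all gene models 40.7%) or replicate 3 (43.9%), and 5 without day 14 replicate 3 (40.9%).

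The change from day 0 to day 14 differed between cultivars in 8 members (6.15%, against 20.1% of all gene models) by edgeR's quasi-likelihood F test. The signs of the 4 changes differed in 6 of these. The member of rank 76 had the smallest adjusted p, 0.0034, with fitted log2 fold changes by edgeR of 3.37 in GQ, 1.88 in OP, 0.71 in GGI and 0.15 in IS. It was higher at day 14 in every cultivar, and most so in GQ and OP. Rank 81 (adjusted p = 0.0122 by edgeR) had 0.81 in IS, where the other 3 cultivars had -0.95 in OP, -0.76 in GGI and -1.32 in GQ. Rank 89 (adjusted p = 0.0167 by edgeR) had 1.21 in GQ and -0.44, -0.97 and -0.74 in OP, IS and GGI. The member of rank 90, one of the 7 without overlap, had 1.34 in IS and between -0.39 and 0.09 in the other 3 (adjusted p = 0.022 by edgeR).

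The number of members with such a difference was 19 without OP day 0 replicate 1 (all gene models 18%) or GGI day 14 replicate 3 (29%), 25 without IS day 0 replicate 1 (22.4%) and 13 without GQ day 14 replicate 2 (22.1%). It was 5 without IS day 0 replicate 2 or replicate 3 (13.9% each), OP day 14 replicate 2 (15.7%) or IS day 14 replicate 2 (13.6%). Without the 2 libraries with crossed markers it was 7 (16.6%), 6 of them among the 8.

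At day 0, before any of the storage days, 51 members (39.2%) differed between the 4 cultivars by edgeR's F test, where 38.7% of all gene models did. The share of members is close to that background. Without IS day 0 replicate 2, in which 89 members were the highest of their group, it was 26 members, where 29.2% of all gene models differed, and the count then lay below the background.

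The 2 members with the largest peaks among those called higher at day 14, and the 2 among those called lower, are given in full, over members with a mean of at least 1 log2 CPM. Values are CPM in replicates 1 to 3. The first, V2_02g001970.1.01, had the second largest peak of all members, 3.70. In OP it had 1.06, 0.807 and 0.685 CPM at day 0, 21.9 and 8.82 CPM in the used day 7 libraries and 95.4 CPM in the left-out one, and 0.749, 1.17 and 8.88 CPM at day 14. In IS it had 0.0224, 3.63 and 0.546 CPM at day 0, 71.3, 46.5 and 40.5 CPM at day 7, and 7.45, 14.2 and 55.5 CPM at day 14. In these 2 cultivars day 7 lay above day 0 throughout, and 1 library of day 14 reached into the range of day 7.

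In GGI V2_02g001970.1.01 had 1.07, 0.934 and 1.55 CPM at day 0, 35.8 and 48.5 CPM at day 7 with 273 CPM in the left-out library, and 0, 1.69 and 2.99 CPM at day 14. In GQ it had 1.10, 1.25 and 0.830 CPM at day 0, 2.20 CPM at day 7 with 43.7 and 22.7 CPM in the left-out libraries, and 0.746, 1.64 and 0 CPM at day 14. All 4 left-out libraries were above every day 0 library, and above the used day 7 library of GQ too. A count of 0 allows up to 0.0904 CPM in the GGI library and 0.0720 CPM in the GQ library (3 reads, counting error only). Over all libraries used, the mean was 1.12 ± 0.876 CPM at day 0 (SD, n = 12), 34.4 ± 22.7 CPM at day 7 (n = 8) and 7.92 ± 15.6 CPM at day 14 (n = 12). The log2 fold change of day 14 over day 0 was 1.52 ± 0.61 (SE, edgeR adjusted p = 0.0301).

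Within cultivars it was called in IS, with 4.12 ± 1.30 (SE, edgeR adjusted p = 0.0116), and not in OP (2.04, adjusted p = 0.185), GGI (0.33, adjusted p = 0.829) or GQ (-0.44, adjusted p = 0.793). The test of the difference between cultivars by edgeR gave V2_02g001970.1.01 an adjusted p of 0.168. The call for the mean of cultivars was lost without OP day 14 replicate 3 (edgeR adjusted p = 0.119) and without 4 other single libraries, IS day 0 replicate 3, IS day 14 replicate 3, GGI day 14 replicate 3 and GQ day 14 replicate 2. Over 33 alternatives its adjusted p ranged from 0.00435 to 0.119, and it missed the threshold in 8.

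V2_13g009210.1.01, of rank 16 with a peak size of 2.60, was highest in OP at day 7. In OP it had 3.18, 3.92 and 2.03 CPM at day 0, 229 and 212 CPM in the used day 7 libraries and 229 CPM in the left-out one, and 19.4, 12.3 and 46.0 CPM at day 14. In IS it had 5.77, 10.8 and 10.6 CPM at day 0, 42.4, 65.7 and 9.31 CPM at day 7, and 3.23, 7.51 and 44.2 CPM at day 14. In OP the 3 days did not overlap, while in IS they did. In GGI it had 2.67, 1.36 and 0.419 CPM at day 0, 3.05 and 11.7 CPM at day 7 with 8.45 CPM in the left-out library, and 4.25, 0.247 and 4.38 CPM at day 14. In GQ it had 3.72, 3.69 and 3.97 CPM at day 0, 17.4 CPM at day 7 with 50.0 and 84.9 CPM in the left-out libraries, and 0.274, 53.0 and 8.61 CPM at day 14. The left-out libraries were above day 0 in all 3 cultivars that have one, and the lowest day 7 value, 3.05 CPM, was in GGI.

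The mean of V2_13g009210.1.01 was 4.34 ± 3.27 CPM at day 0 (SD, n = 12), 73.7 ± 92.8 CPM at day 7 (n = 8) and 17.0 ± 19.4 CPM at day 14 (n = 12). Day 14 was higher than day 0 by 1.84 ± 0.57 on the log2 scale (SE; adjusted p = 0.00634 by edgeR), and this call held in all 33 alternatives, with adjusted p of 0.000671 to 0.0322. Within cultivars it was called in OP (3.04 ± 1.19 SE, edgeR adjusted p = 0.0408), and the other 3 did not pass the test (0.96 in IS, 0.95 in GGI and 2.40 in GQ). The difference between cultivars had an adjusted p of 0.587 by edgeR.

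V2_16g010290.1.01, of rank 15 with a peak size of 2.64, was lower at day 14 than at day 0 in the mean of cultivars. In OP it had 58.2, 2.63 and 12.7 CPM at day 0, 44.0 and 28.3 CPM in the used day 7 libraries and 19.9 CPM in the left-out one, and 23.4, 5.32 and 4.15 CPM at day 14. In IS it had 26.9, 10.7 and 30.9 CPM at day 0, 35.1, 56.6 and 23.3 CPM at day 7, and 3.01, 4.14 and 7.11 CPM at day 14. OP at day 0 held both the lowest and the highest value of these 2 cultivars' day 0 libraries, and day 7 overlapped with day 0 in both. In GGI it had 25.1, 35.3 and 4.13 CPM at day 0, 16.0 and 62.6 CPM at day 7 with 9.02 CPM in the left-out library, and 1.15, 0.282 and 13.6 CPM at day 14. In GQ it had 2.82, 11.2 and 1.48 CPM at day 0, 76.7 CPM at day 7 with 36.3 and 5.77 CPM in the left-out libraries, and 0.970, 11.7 and 7.17 CPM at day 14. The left-out libraries of OP and GGI, and GQ replicate 3, fell within the day 0 range of their cultivar, and GQ replicate 2 lay above it.

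The mean of V2_16g010290.1.01 was 18.5 ± 17.2 CPM at day 0 (SD, n = 12), 42.8 ± 21.0 CPM at day 7 (n = 8) and 6.83 ± 6.63 CPM at day 14 (n = 12). The log2 fold change of day 14 over day 0 was -1.34 ± 0.58 (SE, edgeR adjusted p = 0.0417), and it passed in no single cultivar. The fitted change was -1.21 in OP, -2.31 in IS and -2.14 in GGI, but 0.31 in GQ. The call missed the threshold in 19 of 33 alternatives, 14 of them leaving out a single library, with adjusted p of 0.00236 to 0.163. It was lost with all 36 libraries in the model (edgeR adjusted p = 0.0532). Without the 2 libraries with crossed markers it was -1.09 (edgeR adjusted p = 0.0993).

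V2_13g015070.1.01, of rank 17 with a peak size of 2.55, was also lower at day 14. In OP it had 15.8, 2.65 and 4.55 CPM at day 0, 17.3 and 24.9 CPM in the used day 7 libraries and 31.2 CPM in the left-out one, and 12.8, 1.66 and 2.41 CPM at day 14. In IS it had 1.68, 28.0 and 12.6 CPM at day 0, 25.5, 12.3 and 11.3 CPM at day 7, and 1.02, 1.06 and 4.53 CPM at day 14. In OP day 7 stood above the other days, while in IS day 0 replicate 2 was above every day 7 library. In GGI it had 2.01, 2.06 and 1.47 CPM at day 0, 26.0 and 19.9 CPM at day 7 with 15.6 CPM in the left-out library, and 0.362, 0.141 and 1.59 CPM at day 14. In GQ it had 1.42, 1.25 and 1.73 CPM at day 0, 3.33 CPM at day 7 with 3.93 and 1.63 CPM in the left-out libraries, and 0.746, 1.85 and 0.576 CPM at day 14. The transcript reached its lowest day 7 level in GQ, and 1 left-out GQ library was within the day 0 range.

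The mean of V2_13g015070.1.01 was 6.27 ± 8.36 CPM at day 0 (SD, n = 12), 17.6 ± 8.13 CPM at day 7 (n = 8) and 2.39 ± 3.47 CPM at day 14 (n = 12). The log2 fold change of day 14 over day 0 was -1.30 ± 0.45 (SE, edgeR adjusted p = 0.0142). Within cultivars it was called in IS (-2.74 ± 0.93 SE, edgeR adjusted p = 0.0182) and not in the other 3. Its day 0 levels differed between cultivars (edgeR adjusted p = 0.0149), while the difference in change had an adjusted p of 0.405. The call for the mean of cultivars missed the threshold in 1 of 33 alternatives, that without libraries over 13% of reads outside gene models, with adjusted p of 0.0021 to 0.0621.

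**Figure D5:**
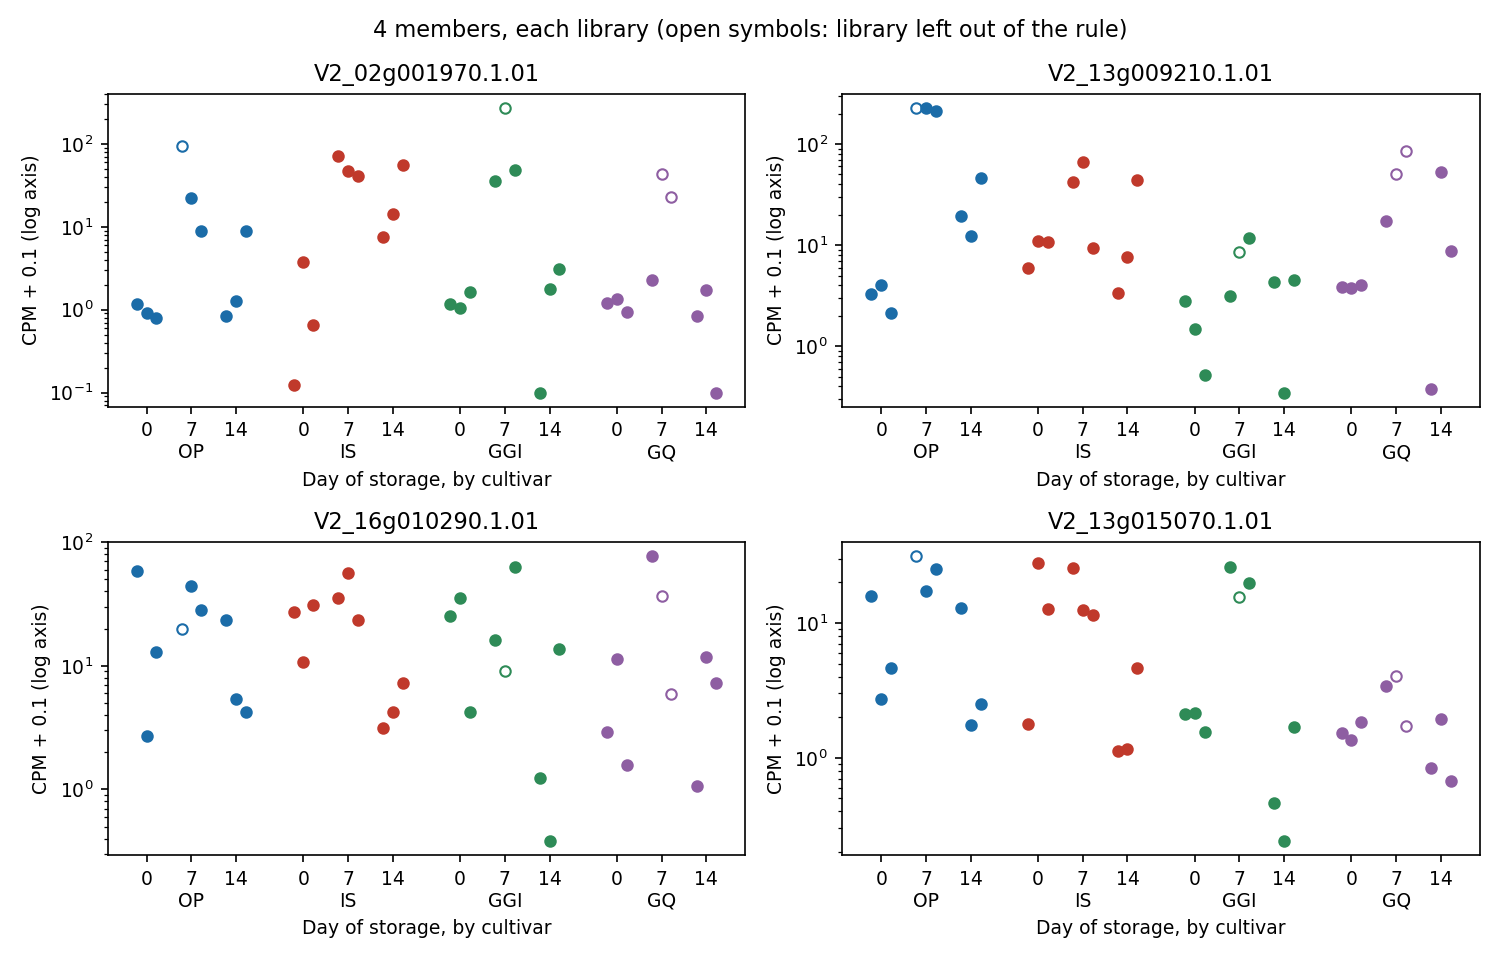
CPM plus 0.1, on a log axis, of the 4 members V2_02g001970.1.01, V2_13g009210.1.01, V2_16g010290.1.01 and V2_13g015070.1.01 in every library, by cultivar and day; filled points are libraries used by the rule and open points those left out. Before the 0.1 is added, V2_13g009210.1.01 reaches 229 CPM in OP at day 7, and V2_13g015070.1.01 stays at 3.93 CPM or below in GQ at day 7.

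The identifiers of the gene models carry a group number from 1 to 17 and a running number. Members were found in every one of the 17 groups, from 2 in group 14 to 15 in group 3. As a share of the gene models tested, they made up 0.268% to 1.27% of a group, with the highest share in group 6 (11 of 869). Another 4 of 143 gene models without a numbered group were members (2.80%). The members were thus spread over all groups.

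Members with consecutive identifiers occurred in 3 pairs. In group 15 the pair had ranks 1 and 3, with peak sizes of 3.71 and 3.45, so that 2 of the 3 largest peaks carried consecutive identifiers. Both drew few reads, with mean levels of -1.72 and -1.94 log2 CPM. Relative to day 0, rank 1 had -3.35 in the left-out OP library, -1.06 in each left-out GQ library and 4.62 in that of GGI. Rank 3 had -2.22, -0.50 and 4.57 in the same order. In the left-out OP and GQ libraries these values lie at the floor of the log2 scale, where a count of 0 falls. They depend on how 0 is treated, and no fall below day 0 is read from them. In group 13 V2_13g015070.1.01, of rank 17, had as its partner the member of rank 28 (peak sizes 2.55 and 2.05). In group 7 the pair had ranks 53 and 98 (1.63 and 1.19). Whether reads were shared between the gene models of a pair was not tested.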

How the data were processed

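RNA from heart tissue was sequenced in 36 libraries. The deposited files hold the authors' raw read counts per gene model, 1 file per library. Cutadapt and STAR are named in the submitters' processing notes, without version or role. The counter, genome build, annotation and strand setting: not given in the sources used here. Overlapping or near-identical gene models may therefore share reads. Summary entries (13.9% to 85.2% of listed reads) were kept out of library sizes.

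Gene models with at least 10 reads in at least 3 libraries were kept. Membership used TMM-scaled log2 CPM with a prior count of 2 over the 32 libraries with at most 25% of reads outside gene models. The members and comparisons were chosen with earlier results of these data known. Counts were tested with edgeR 4.0.16 (quasi-likelihood, robust, R 4.3.3, limma 3.58.1) on means of 12 cultivar and day groups, with Benjamini-Hochberg adjustment over 21883 gene models and a threshold of 0.05. The biological coefficient of variation was 0.422. CPM per library were scaled over all 36 libraries. No 2 replicates agreed within sampling noise (lowest chi-square per degree of freedom 55.1 over 36 pairs).

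Members named by identifier have a mean of at least 1 log2 CPM and the largest peaks among those called higher (2) and lower (2) at day 14. Other members mentioned by rank were picked after their values were seen. Alternatives were RLE scaling, DESeq2 1.42.0, other filters and thresholds, all libraries, a replicate block and leaving out libraries. Procedures were tested on simulated data. The simulated peaks given to the rule were larger than those of most members, with less spread between replicates. They do not show how the rule does at the members' own peak sizes and spread.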

Additional observations from a re-analysis of the deposited data

Results flagged for a closer look

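The change of day 14 against day 0 differed between the 4 cultivars in 8 of the 130 members by edgeR's quasi-likelihood F test, where the difference itself was the quantity tested. This is 6.15% of the members, against 20.1% of all gene models tested. They ranked 23, 47, 76, 81, 89, 90, 101 and 112 by peak size. The member of rank 23 had log2 fold changes of 2.37 in OP, 0.61 in GQ, 1.84 in IS and -1.54 in GGI (edgeR adjusted p = 0.0484). Rank 47 had 1.50 in GQ, 1.43 in OP, -1.10 in GGI and -1.68 in IS (edgeR adjusted p = 0.0252). Rank 101 had 2.03 in OP, 0.75 in GQ, 1.00 in IS and -0.15 in GGI (edgeR adjusted p = 0.0279). The change was negative in GGI in these 3 and in ranks 81, 89 and 90. Rank 112 had positive changes in all 4 cultivars, from 0.12 in IS to 1.20 in OP (edgeR adjusted p = 0.023).

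In the 4 day 7 libraries that had no part in the choice, the members' median lay above the day 0 mean of the cultivar. This did not hold in every member. The day 0 means these libraries are set against were used by the rule. Their median over the members, relative to the day 0 mean of the cultivar on the log2 scale, was 0.675 in OP replicate 1, 1.85 in GGI replicate 2, 1.32 in GQ replicate 2 and 0.679 in GQ replicate 3. In OP replicate 1, 74 of the 130 members (56.9%, against 33.7% of all gene models) were above the day 0 mean, and the lower quartile of the members was -2.82. The OP replicate 1 median lay below those of OP day 0 replicate 1 (0.747) and OP day 14 replicate 1 (0.963). In the 81 members not above day 0 in all 4 libraries, the median was -1.70 in OP replicate 1 and -0.88 in GQ replicate 3. Reads outside gene models made up 71.0%, 33.5%, 31.6% and 30.1% of these libraries in the same order. The part of these reads in the members' levels was not tested.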

How the results depend on the processing

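The number of gene models meeting the rule was 349 at a threshold of 0.25, 19 at a threshold of 1, and 226 without libraries over 13% of reads outside gene models (GQ not asked), against 130. It was 121 to 138 under the other scaling, filter and prior settings, and 76 to 273 with single libraries left out. With all 36 libraries in the model, the members called at day 14 against day 0 numbered 19 in the mean of cultivars (9 lower; all gene models 59.4%), 4 in GQ (30.1%), 8 in OP (25.7%), 10 in GGI (39%) and 11 in IS (32.6%), the difference between cultivars was called in 2 (3.12%), and the day 0 difference in 22 (14.2%). The share of all gene models called thus fell too. With DESeq2, 26 members differed between cultivars in their change, where 30.9% of all gene models did. Without the 2 libraries with crossed markers, GGI had 5 (49.8%). With single libraries left out, the count in the mean of cultivars was 26 to 34 (12 to 21 higher, 12 to 22 lower), in GQ 5 to 15, in OP 7 to 20, in GGI 6 to 36 and in IS 7 to 47. The difference between cultivars was called in 5 to 25, and the day 0 difference in 26 to 62. The causes were not tested. The fitted change of the 4 members named by identifier kept its sign under the alternatives run, while the balance of called members turned to 17 higher and 11 lower without the libraries with crossed markers, and to 20 higher and 14 lower without libraries over 13%.

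The labels tie replicate numbers to no shared source, and the numbers were not treated as pairs: libraries of the same number correlated by -0.0854 to 0.321 over 12 pairs, 3 of them over 0.1, and 8 of 12 day 14 libraries correlated best with their own number, a hint from the data that they may be. With a replicate block the counts were 28 in the mean of cultivars (all gene models 71.3%), 12 in OP (43.8%), 12 in GQ (47.6%), 17 in GGI (54.9%), 24 in IS (50.9%), 8 for the difference between cultivars (18.6%) and 47 at day 0 (36.7%). Under the block the calls of V2_02g001970.1.01 (1.38, edgeR adjusted p = 0.0561) and V2_16g010290.1.01 (-1.34, edgeR adjusted p = 0.0617) were lost. Depth limits members with few reads, and GQ at day 7 rests on 1 library with no replicate check. In leave-one-out fits a group left with fewer libraries takes its spread from the others.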
